A study of Arabidopsis thaliana with 10 samples.

Results

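PYK10 (AT3G09260) and JAL23 (AT2G39330) were followed across 10 arrays of Arabidopsis thaliana rosettes, as 2 genes among the 22810 probe sets of the array. A gene was taken where the platform annotation gave a probe set that gene alone, and each of the 2 had 1 such probe set among 13513 probe sets with 1 gene. Below, a gene is called measured where it had such a probe set. The annotation named several genes for 503 probe sets and none for 8730, so genes not counted as measured may still be on the array. PYK10 encodes a beta-glucosidase that is stored in ER bodies, spindle-shaped compartments of the endoplasmic reticulum found in plants of the mustard family. JAL23 encodes a jacalin-related lectin, a sugar-binding protein counted among the partners of PYK10.

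ER bodies keep PYK10 away from its substrates, which include indole glucosinolates. When a cell is crushed, the enzyme meets these substrates and gathers in large complexes with jacalin-related lectins and lipase-like proteins. In seedlings and roots PYK10 and many of its partners depend on NAI1, a transcription factor, and ER body formation there needs the protein NAI2. Rosette leaves hold few ER bodies unless wounded or treated with jasmonate, and PYK10 is best known from roots.

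All plants were of ecotype Col-0, 4 weeks old and untreated. Of the CesA4 line, whose allele is labelled irx5-2, 3 arrays came from homozygous and 3 from heterozygous plants, and of the CesA6 line 2 arrays came from homozygous and 2 from heterozygous plants. The allele of the CesA6 line is labelled irx6-1, while the reference gives the symbol IRX6 to a COBRA-like gene, so which gene is mutated in that line is uncertain. Each line is 1 allele and every plant carried at least 1 mutant copy. No wild type was analysed here, and homozygous plants were set against the heterozygotes of their line. Nothing in the labels tells separate plants from pools, so n counts arrays and the p-values measure the spread between arrays, which may be technical.

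Signals are the deposited MAS5 intensities on a linear scale, on which every array had a trimmed mean of 100.01. Arrays of the same group correlated at 0.934 to 0.953, and the least similar pair at 0.872. The rosette label was checked against marker genes, of which few had a named probe set. Both leaf markers were among the brightest probe sets, with RCA, the activator of Rubisco, between 9890 and 11980 and the light-harvesting gene LHCB4.1 between 6706 and 8897. The 3 measured root markers of 19 listed, the expansin genes EXPA7 and EXPA18 and the gene AT5G17820, had signals from 0.701 to 16.5 and lay among the 30% of probe sets left out as dim. Their summed signal was 3.74 to 17.8 in homozygous and 3.89 to 13.98 in heterozygous CesA4 plants, and 4.06 to 7.52 and 21.2 to 29.0 in the CesA6 groups. The sum was highest in heterozygous CesA6 plants, but signals this dim are limited by the background. It therefore does not rank the groups by root content. On the 2 arrays of that group EXPA7 was 9.046 and 11.84, EXPA18 2.796 and 16.48, and AT5G17820 9.318 and 0.7099. Whether root tissue had a part in the results was not tested. Of the pollen, tapetum and seed markers 2 were measured, ATA27 and AT5G45880, between 0.476 and 17.9.

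PYK10 was the lower-ranked of the pair within the array, with a mean signal above 88.2% of probe sets. In homozygous CesA4 plants its signal was 378, 441.2 and 285.4, and in heterozygous CesA4 plants 309, 177.8 and 101.3. These groups overlapped, because heterozygous replicate 1 exceeded homozygous replicate 3. In homozygous CesA6 plants the signal was 360.2 and 278.4, against 121.4 and 97.3 in heterozygous ones, and these groups did not overlap.

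JAL23 was among the brightest probe sets, above 97.1% of the others. Its signal was 1622, 1294 and 1315 in homozygous CesA4 plants and 363.5, 496.4 and 256 in heterozygous ones, so that every homozygous array lay above every heterozygous array. In the CesA6 line it was 1398 and 914.2 in homozygous and 986.9 and 760.8 in heterozygous plants. Those groups overlapped, and both heterozygous CesA6 arrays lay above all 3 heterozygous CesA4 arrays.

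**Figure D1:**
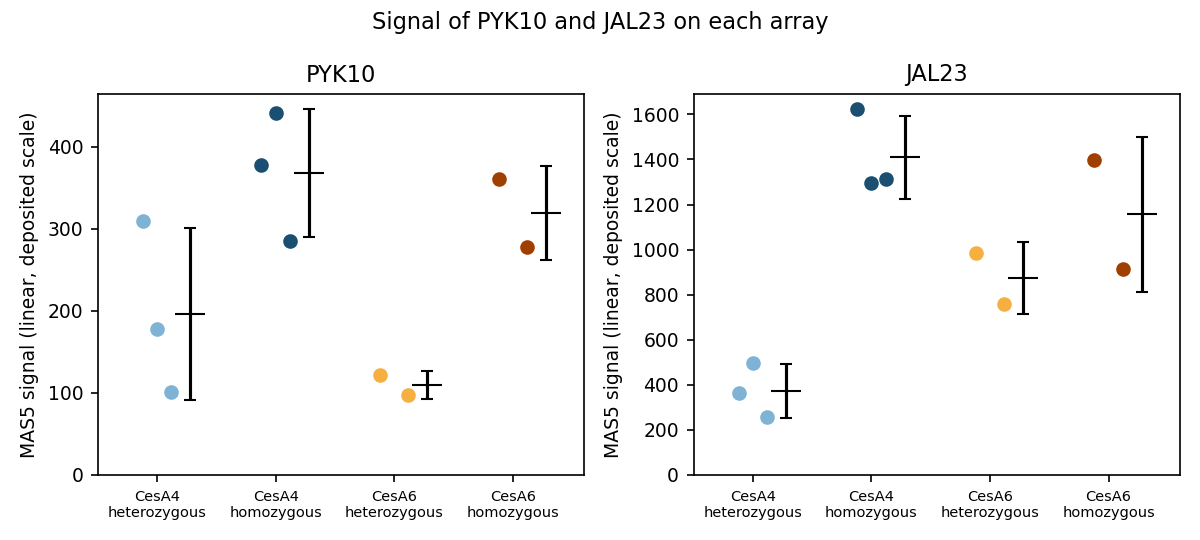
MAS5 signal of PYK10 (left) and JAL23 (right) on the linear deposited scale, 1 point per array in 4 groups, with the group mean and SD as bars to the right. PYK10 has its lower group means in heterozygous plants, with 1 heterozygous CesA4 array at 309 among the homozygous values, and JAL23 is lowest in heterozygous CesA4 plants, at 256 to 496.4.

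The first question was whether either gene differed between homozygous and heterozygous plants. Averaged over both lines, PYK10 was 2.405-fold and JAL23 2.25-fold higher in homozygous plants. For PYK10 the log2 difference was 1.27 ± 0.27 (SE, adjusted p = 0.00734 by limma) and for JAL23 1.17 ± 0.17 (adjusted p = 6.8e-05), while 9.06% of all tested probe sets were called higher in this comparison. All log2 differences are on the scale of log2(signal + pseudocount), in which the pseudocount is 3.2 on the deposited scale. The samples are whole rosettes, in which a larger share of expressing cells and more RNA per cell cannot be told apart.

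Each line was then read alone. JAL23 rose 3.88-fold in the CesA4 line, a log2 difference of 1.96 ± 0.21 from a mean of 371.9 ± 120 to 1411 ± 184 (SD, n = 3 each, adjusted p = 4.2e-06 by limma), where 8.22% of probe sets were called higher. In the CesA6 line its difference was 0.38 ± 0.26 (95% interval -0.17 to 0.94, adjusted p = 0.464), with means of 873.8 ± 160 and 1156 ± 342 (n = 2 each), against 3.73% of probe sets called higher. PYK10 had the larger estimate in the CesA6 line, 1.52 ± 0.42 (95% interval 0.59 to 2.44, adjusted p = 0.052), from 109.3 ± 17.0 to 319.3 ± 57.8. In the CesA4 line it stood at 1.02 ± 0.34 (95% interval 0.26 to 1.77, adjusted p = 0.0764), from 196 ± 105 to 368.2 ± 78.4. Neither PYK10 difference passed the threshold of 0.05 alone. With the replicate number as a block in the limma fit both passed (adjusted p = 0.000349 in the CesA4 and 7.08e-05 in the CesA6 line). Whether these numbers pair the arrays is not settled.

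The PYK10 calls turned on single arrays of the heterozygous CesA4 group. Without heterozygous CesA4 replicate 1 the CesA4 difference was 1.41 (adjusted p = 0.000153 by limma), and without heterozygous CesA4 replicate 3 it was 0.62 and not called. The CesA6 difference of 1.52 passed without heterozygous CesA4 replicate 1 (adjusted p = 0.000294) and without heterozygous CesA4 replicate 3 (adjusted p = 0.000361), since all groups share the estimate of the spread. A fit to the CesA6 arrays alone likewise called it (adjusted p = 9.1e-05). The average over both lines passed in all 17 alternatives run, for PYK10 and for JAL23.

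The second question was whether the change differed between the lines. For JAL23 the CesA4 change exceeded the CesA6 change by 1.57 ± 0.34 on the log2 scale (adjusted p = 0.0467 by limma), in a comparison that called 0.578% of probe sets. This call is marginal: it was lost on leaving out any of 8 of the 10 arrays, with differences from 1.27 to 1.88 over all 10, and in 2 further alternatives. The arrays whose removal kept it were heterozygous CesA4 replicate 2 and homozygous CesA6 replicate 1. For PYK10 the difference was -0.50 ± 0.54 (95% interval -1.70 to 0.70, adjusted p = 0.77), so a larger change in either line is within its error.

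The line difference of JAL23 was then located by genotype, a comparison added after the values were seen. Among heterozygous plants JAL23 was lower in the CesA4 line by 1.26 on the log2 scale, at -1.26 ± 0.24 (adjusted p = 0.00355 by limma), where 4.62% of probe sets were called lower. This call was lost without heterozygous CesA6 replicate 1, where the difference was -1.08 (adjusted p = 0.0845), and under eBayes without trend and robust (adjusted p = 0.078). Among homozygous plants the difference was 0.31 ± 0.24 (95% interval -0.20 to 0.82, adjusted p = 0.732), in a comparison that called 1.3% of probe sets in either direction. These values and the difference between changes rest on the same arrays and are not independent. PYK10 differed by 0.69 ± 0.38 among heterozygous plants (adjusted p = 0.339) and by 0.19 ± 0.38 among homozygous ones (adjusted p = 0.934). Without heterozygous CesA4 replicate 3 the PYK10 difference among heterozygous plants was 1.09 (adjusted p = 0.0138), and without replicate 1 it was 0.30 (adjusted p = 0.599).

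The order of the group means thus differed between the genes. For PYK10 it ran from heterozygous CesA6 over heterozygous CesA4 and homozygous CesA6 to homozygous CesA4, and each neighbouring pair of groups overlapped. For JAL23 it ran from heterozygous CesA4 over heterozygous CesA6 and homozygous CesA6 to homozygous CesA4. There the lowest neighbours did not overlap, and the other neighbours did. Averaged over both genotypes, the CesA4 line minus the CesA6 line was 0.44 ± 0.27 for PYK10 (adjusted p = 0.414) and -0.48 ± 0.17 for JAL23 (adjusted p = 0.112), where 6.83% of probe sets were called in either direction. The first passed without heterozygous CesA4 replicate 3, at 0.64 (adjusted p = 0.0283), and was 0.25 without replicate 1 (adjusted p = 0.492). The second passed without heterozygous CesA4 replicate 2, at -0.59 (adjusted p = 0.0164), and was -0.32 without homozygous CesA6 replicate 1 (adjusted p = 0.369).

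The third question was whether the genes moved together. Over the 10 arrays Pearson's r between their log2 values was 0.559 (p = 0.0932, permutation test) and Spearman's rho 0.636 (p = 0.055, permutation test), both two-sided. Both were 0.186 after adjustment over 4 coefficients, r and rho over all arrays and without the 2 arrays named next. The p-values of the other alternatives were not adjusted. Without the 2 arrays farthest from the PYK10 median, heterozygous CesA6 replicate 2 and heterozygous CesA4 replicate 3, r was 0.362 (p = 0.391) and rho 0.524 (p = 0.197) by exact permutation. This choice narrows the range of PYK10, which by itself tends to lower r, so the fall cannot show whether the genes move together. With each of the 10 arrays left out in turn, r ranged from 0.365 to 0.742. The highest was that without heterozygous CesA4 replicate 1 (p = 0.0157, exact permutation test, not adjusted), and no other such p was under 0.05. The arrays fall into 4 groups, so r mixes differences between groups with differences within them. For deviations from the group means r was 0.527.

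That correlation was not rare on these arrays. With PYK10, 10.3% of all other tested probe sets had an r at least as high as that of JAL23, and with JAL23, 16.5% had one at least as high as that of PYK10. For deviations from group means the shares were 14.2% and 12.1%. The heterozygous CesA6 arrays set the genes apart, with PYK10 near its lowest and JAL23 at 760.8 and 986.9. Relative to PYK10, JAL23 was higher there than in heterozygous CesA4 plants by 1.96 on the log2 scale. This comparison was not planned and was made on groups already seen to differ. An exact permutation test gave p = 0.2 (adjusted p = 0.4 over 2 such tests). This test doubles the one-sided p, and for 3 against 2 arrays the smallest p it can give is 0.2. It therefore could not have called any difference. Among homozygous plants the corresponding difference was -0.12 (p = 0.8, exact permutation test).

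**Figure D2:**
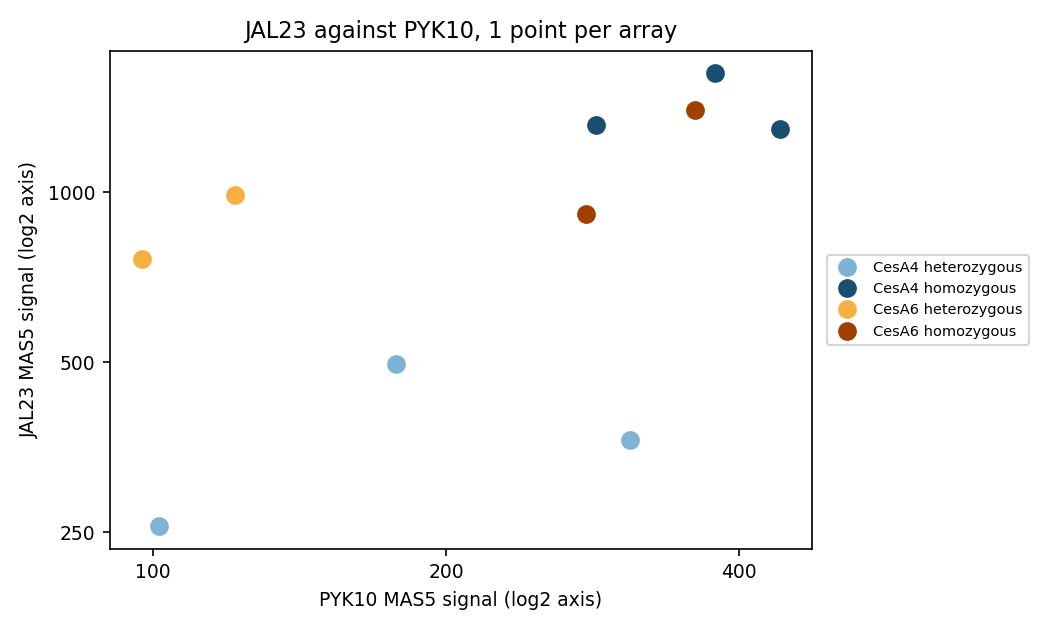
JAL23 signal against PYK10 signal, both on log2 axes, 1 point per array and 1 colour per group. Homozygous arrays of both lines lie together at the upper right, while the 2 heterozygous CesA6 arrays combine low PYK10 with JAL23 at 760.8 and 986.9.

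The other genes of the pathway were taken from lists fixed by locus. These lists and the pair were chosen with earlier results of these data known, so the calls below are descriptions and not independent support. Of 24 genes listed as ER body components or as members of the PYK10 complex, 11 had a named probe set and 8 passed the filter on dim probe sets, PYK10 and JAL23 among them. BGLU19, BGLU24 and ATA27, further beta-glucosidase genes, had signals of 0.476 to 20.4 and were not tested. Averaged over both lines, the 8 tested genes were all called higher in homozygous plants, where 9.06% of all tested probe sets were, with differences from 0.45 to 1.73 and list medians of 1.23 and 1.18, beside a median of -0.01 over all tested probe sets. The BGLU25 call is the weak one of these: it was lost on leaving out any of 8 arrays and in 2 further alternatives. The calls of the other 7 held in all alternatives that could be run for them. These were 16 for NAI1, which the stricter dim filter left out, and 17 for the rest. NAI1 passed the filter by its mean over all arrays, to which homozygous plants gave most, with group means of 28.23 and 29.6. Its heterozygous means of 9.293 and 5.442 lay within the signals of the untested genes above, so its call is not separate support.

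**Figure D3:**
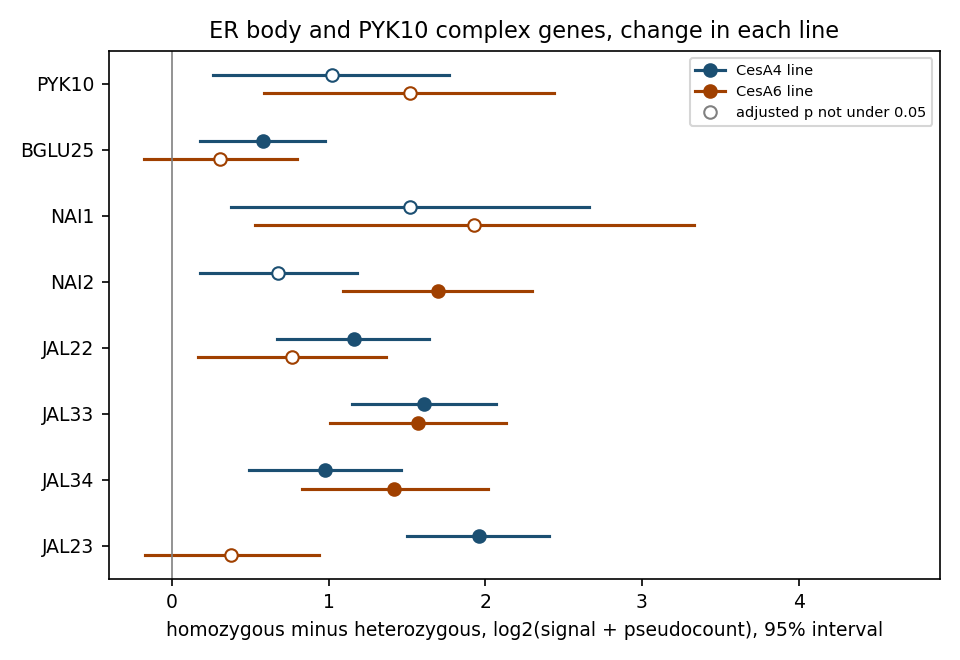
Log2 difference between homozygous and heterozygous plants with its 95% interval for 8 ER body and PYK10 complex genes, in the CesA4 line (blue) and the CesA6 line (brown). Filled points have an adjusted p under 0.05 and open points do not. JAL23 has the widest gap between the lines, 1.96 against 0.38.

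NAI2, needed to form ER bodies, had a signal of 169.2 and 176.9 in homozygous and 47.01 and 55.68 in heterozygous CesA6 plants. This was a log2 difference of 1.70 ± 0.29 (adjusted p = 0.000431 by limma). In the CesA4 line it had 176.8, 181.6 and 124.7 against 142.4, 108.5 and 60.46. The groups overlapped, and the difference of 0.68 ± 0.24 was not called (adjusted p = 0.0596). Without heterozygous CesA4 replicate 1 it was 0.94 and was called (adjusted p = 0.00946), as it was without homozygous CesA4 replicate 3, at 0.85 (adjusted p = 0.0322). Without heterozygous CesA4 replicate 3 it was 0.35 (adjusted p = 0.344).

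NAI1, the transcription factor gene, was dim, with a signal of 23.8 to 35.4 in homozygous and 1.769 to 15.15 in heterozygous plants. The genotypes did not overlap in either line, which says little for the 2 against 2 arrays of the CesA6 line. Averaged over both lines the difference was 1.73 ± 0.44 (adjusted p = 0.00581 by limma), and within the CesA4 and CesA6 lines it was 1.52 ± 0.55 (adjusted p = 0.0659) and 1.93 ± 0.67 (adjusted p = 0.0823). The CesA4 difference passed without heterozygous CesA4 replicate 2, at 1.90 (adjusted p = 0.0416), and was 0.96 without heterozygous CesA4 replicate 3 (adjusted p = 0.257). The CesA6 difference of 1.93 passed without that replicate 3 (adjusted p = 0.0308).

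The other 3 measured lectin genes rose in the CesA4 line, as JAL23 did. JAL33 had 190.1, 213.9 and 139.2 in homozygous and 77.04, 58.84 and 38.93 in heterozygous CesA4 plants, a difference of 1.61 ± 0.22 (adjusted p = 1.04e-05 by limma). In the CesA6 line it had 156.4 and 174.5 against 56.74 and 50.54, a difference of 1.57 ± 0.27 (adjusted p = 0.000348). JAL33 thus had nearly the same estimate in both lines.

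JAL34 rose by 0.98 ± 0.23 and 1.42 ± 0.29 in the CesA4 and CesA6 lines (adjusted p = 0.00485 and 0.00183 by limma). Its CesA6 call was lost without heterozygous CesA6 replicate 2, at 1.13 (adjusted p = 0.0626), and both calls were lost under eBayes without trend and robust (adjusted p = 0.0662 and 0.0582). JAL22 rose by 1.16 ± 0.23 in the CesA4 line (adjusted p = 0.00102) and stood at 0.77 ± 0.29 in the CesA6 line (adjusted p = 0.109). JAL22 lies 2 protein-coding genes from JAL23 on chromosome 2, and JAL33 and JAL34 are neighbours on chromosome 3. For JAL22, JAL33 and JAL34 the CesA4 change minus the CesA6 change was 0.39 ± 0.37, 0.04 ± 0.35 and -0.45 ± 0.37, none of them called. Whether JAL23 differs in this from the other lectin genes was not tested.

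**Figure D4:**
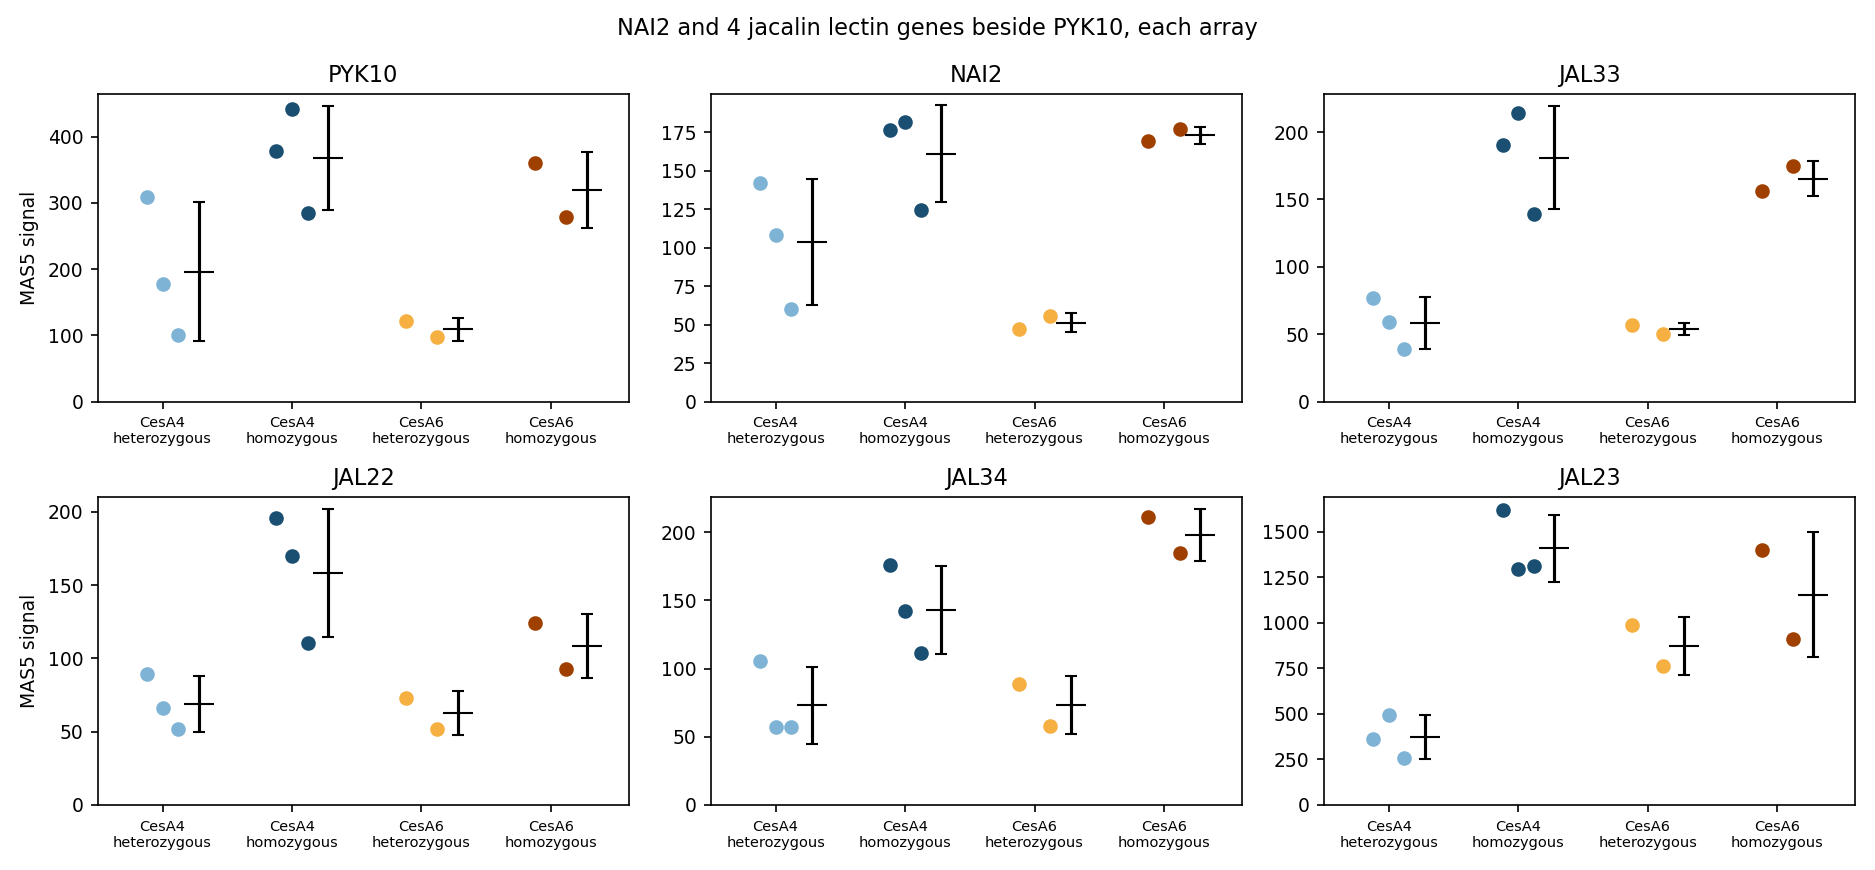
MAS5 signal on each array for PYK10, NAI2 and the 4 measured jacalin lectin genes, in 4 groups, with group mean and SD as bars to the right of the points. Heterozygous CesA6 plants have about the level of heterozygous CesA4 plants for JAL22, JAL33 and JAL34 but stand above them for JAL23, at 873.8 against 371.9.

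Array by array, PYK10 had a higher r with NAI1, NAI2 and the 3 other lectin genes than with JAL23, and a lower one with BGLU25, at 0.521. Over the 10 arrays its r was 0.951 with NAI2, 0.911 with JAL33, 0.910 with JAL22, 0.885 with NAI1 and 0.838 with JAL34. For JAL23 the coefficients with these 5 genes, in that order, were 0.435, 0.774, 0.739, 0.702 and 0.699, and 0.787 with BGLU25. For deviations from group means PYK10 had an r of 0.914 with JAL33, 0.884 with NAI2, 0.843 with JAL22, 0.797 with JAL34, 0.645 with NAI1 and 0.342 with BGLU25. JAL23 had 0.392, 0.442, 0.599, 0.337, 0.604 and 0.3 with those genes, so that NAI1 and BGLU25 were about as close to the one as to the other. Within the heterozygous CesA4 group, replicate 1 was the highest of the 3 arrays for PYK10, NAI2, JAL22, JAL33 and JAL34, while JAL23 and NAI1 were highest on replicate 2 and BGLU25, within 97.74 to 102.7, on replicate 3. These coefficients are descriptions, since the genes share arrays and groups.

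BGLU25 encodes a beta-glucosidase related to PYK10. It had 151.9, 191.8 and 118.8 in homozygous against 97.74, 100.4 and 102.7 in heterozygous CesA4 plants, a difference of 0.58 ± 0.19 (adjusted p = 0.0442 by limma). That call was lost in 10 of 18 alternatives, on leaving out any of 7 arrays, without the dim filter, under eBayes without trend and robust and with only that line's arrays (adjusted p = 0.0511 to 0.216). In the CesA6 line it stood at 0.31 ± 0.24, and at 0.02 and 0.61 without homozygous CesA6 replicates 1 and 2. Of 22 measured genes of the BGLU family 12 were tested, and 3 were called higher over both lines, PYK10, BGLU25 and BGLU40 (0.51 ± 0.12), with none lower, beside 9.06% of all tested probe sets called higher and 9.16% lower. The median of the 12 was 0.33. The close relatives BGLU21 and BGLU22 share a probe set and were not analysed, and whether their transcripts add to the PYK10 signal was not tested.

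Of the jasmonate list 1 of 18 genes had a named probe set and was tested, the thionin gene THI2.1, which jasmonate induces. It rose by 2.1 ± 0.25 and 2.50 ± 0.30 in the CesA4 and CesA6 lines (adjusted p = 1.55e-05 and 4.24e-05 by limma). Its r with PYK10 was 0.903 over the 10 arrays and 0.613 for deviations from group means, and with JAL23 0.616 and 0.673. Averaged over both genotypes THI2.1 was higher in the CesA4 line, by 0.95 ± 0.19 (adjusted p = 0.00719 by limma), where 6.83% of probe sets were called in either direction. Of the 10 indole glucosinolate genes 1 had a named probe set, UGT74B1, whose product glucosylates glucosinolate precursors. Its signal was 595.7, 691.5 and 496.5 in homozygous and 416.1, 391.1 and 304.4 in heterozygous CesA4 plants, a difference of 0.68 ± 0.16 (adjusted p = 0.00433), whose call was lost under eBayes without trend and robust (adjusted p = 0.0561). In the CesA6 line it had 451.6 and 504.5 against 641.4 and 534.9, a difference of -0.29 ± 0.20 (adjusted p = 0.444). No gene of the myrosinase list or of the ER chaperone list had a named probe set here.

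Among the 8737 tested probe sets with 1 gene, the 5 most like PYK10 over the 10 arrays were AT3G48440 (r = 0.968), AT3G07030 (0.960), NAI2 (0.951), AT4G35720 (0.944) and AT1G65280 (0.921). NAI2 was the only one of these 5 on the lists. By deviations from group means the nearest were AT4G29960 (r = 0.983), AT5G51080 (0.982) and 4CL8 (0.956). AT4G35720 and AT5G51080 were dim, with signals of 1.896 to 42.9 and 3.871 to 26.27.

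The 5 most like JAL23 were IRX15-L (r = 0.977), AT4G14090 (0.968), AT2G21185 (0.968), AT1G14130 (0.965) and AT5G16380 (0.963). IRX15-L, a gene of xylan synthesis, had 163.8, 160.5 and 161.5 in homozygous and 48.72, 56.23 and 37.62 in heterozygous CesA4 plants. In the CesA6 line it had 131.1 and 127.6 against 123.8 and 107.1, so heterozygous CesA4 plants stood apart from the other 3 groups as they did for JAL23. By deviations from group means the genes nearest to JAL23 were AT4G11290 (r = 0.985), AT3G06700 (0.968) and UBP24 (0.967). Between genotypes AT4G11290 went the other way than JAL23. Over both lines it was lower in homozygous plants, at -1.43 ± 0.33 (adjusted p = 0.00283 by limma), where 9.16% of probe sets were called lower.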

How the data were processed

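Transcripts were measured on Affymetrix ATH1 arrays, 1 per sample. The authors deposited linear intensities, which are MAS5 signals from GCOS per the submitters' processing notes. Detection calls were not used here. Signals were rescaled so that the mean of an array, trimmed by 2% at each end, was 500, and log2(signal + 16) was taken. After dropping 64 controls and the dimmest 30% by mean signal, 15922 probe sets were tested. Differences were fitted with limma 3.58.1 (R 4.3.3), a mean for each of the 4 groups and all 10 arrays sharing the spread (6 residual degrees of freedom), with eBayes with trend and robust. P-values were adjusted by Benjamini-Hochberg over all tested probe sets, with a threshold of 0.05. The number of arrays limits the precision. Probe sets were named from GEO's platform annotation and, by gene ID, from TAIR10.1 (13436 of 13513 with 1 gene matched, 503 had several genes and 8730 none). Correlations were tested by 100000 permutations (exactly for 8 and 9 arrays).

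The fit was run on simulated arrays with independent normal noise for each probe set. These held no pairing or pooling of arrays, so they could not test those points. The members and gene lists were chosen with earlier results of these data known. Named genes are PYK10, JAL23, the measured members of the ER body and PYK10 complex lists, up to 4 members of each other list, and for each of the pair the 5 nearest genes by r and the 3 nearest by r of deviations from group means. BGLU40 was named after its values were seen. Alternatives changed the pseudocount, the normalization, the dim filter, eBayes, a replicate block, the arrays in the fit and each array left out.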

Additional observations from a re-analysis of the deposited data

Results flagged for a closer look

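JAL23 met the test of a difference between the lines, with a CesA4 change minus CesA6 change of 1.57 on the log2 scale (adjusted p = 0.0467 by limma). IRX15-L, the gene nearest to JAL23 over the arrays, met it too, at 1.56 (adjusted p = 0.0128), and its call was lost on removing either heterozygous CesA6 array (1.45 and 1.66) or replicate 2 of the homozygous ones (1.54), and under eBayes without trend and robust (adjusted p = 0.238). IRX15-L was named because its pattern is like that of JAL23, so the 2 values are not independent.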

How the results depend on the processing

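No direction of a PYK10 or JAL23 difference turned under any alternative. Whether the numbers of the replicates pair the arrays was not settled, and the main fit used no pairing. In the CesA4 line same-numbered arrays correlated in their deviations at 0.019, 0.078 and 0.058, and differently numbered ones at -0.075 to 0.025. Homozygous CesA4 replicate 1 correlated best with heterozygous replicate 3. In the CesA6 line same-numbered arrays correlated at 0.03 and 0.03, which are not separate values, since deviations of 2 arrays mirror each other. With the replicate block PYK10 was 1.02 (adjusted p = 0.000349 by limma) in the CesA4 line, 1.52 (7.08e-05) in the CesA6 line, 0.73 (0.00662) between lines and 0.97 (0.00738) between heterozygous plants, all called. The block also gave calls for NAI2 in the CesA4 line, at 0.68 (0.0129), JAL22 in the CesA6 line, at 0.77 (0.0311), and the UGT74B1 difference between changes, at 0.97 (0.0414). A pseudocount of 64 gave calls in the CesA4 line for NAI2, at 0.63 (0.0479), and NAI1, at 0.94 (0.0462). PYK10 in the CesA6 line was also called with quantile normalization, at 1.56 (0.0373), with the lowest 50% left out, at 1.52 (0.0432), and with only that line's arrays, at 1.52 (9.1e-05). The JAL23 difference between changes was not called with a pseudocount of 4, at 1.58 (0.0568). Under eBayes without trend and robust it was 1.57 (0.337), and JAL23 between heterozygous plants was -1.26 (0.078). That setting called 744 probe sets in the CesA6 line against 1361, 424 between lines against 1087, 288 between heterozygous plants against 1281 and 56 between homozygous plants against 207. It called 0 for the difference between changes against 92, with 1632 against 1906 at an unadjusted p under 0.05. The cause of these shifts was not tested. The correlation of PYK10 with JAL23 was 0.527 for deviations from group means.

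With 1 array left out, PYK10 ranged from 0.62 to 1.41 in the CesA4 line, 1.33 to 1.70 in the CesA6 line, -0.89 to -0.10 for the difference between changes, 0.25 to 0.64 between lines, 0.30 to 1.09 between heterozygous plants and 1.07 to 1.46 over both lines, and JAL23 correspondingly from 1.72 to 2.19, 0.08 to 0.69, 1.27 to 1.88, -0.63 to -0.32, -1.50 to -1.02 and 1.02 to 1.32. Between homozygous plants PYK10 ranged from 0.01 to 0.38 and JAL23 from 0.01 to 0.62. Called probe sets ranged from 1943 to 2353 in the CesA4 line, 719 to 1558 in the CesA6 line, 2216 to 2877 over both lines, 15 to 137 for the difference between changes, 503 to 1112 between lines, 273 to 1497 between heterozygous plants and 112 to 201 between homozygous plants. The correlation ranged from 0.365 to 0.742. Dim signals such as that of NAI1 are limited by the background.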
